A study of Sus scrofa with 14 samples.

Results

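The Toll-like receptors (TLRs) are the family described here, as read in pig meniscus, the fibrocartilage pad of the knee. The members were all array probes whose RefSeq accession belongs to a transcript of pig TLR1 to TLR10. Of these 10 genes, 9 were found, with 13 probes, among 2389 genes that could be named on the array; TLR5, the receptor for bacterial flagellin, had no probe matched by accession and was not analysed here. TLR4 was read by 4 probes, TLR3 by 2 and each of the other 7 genes by 1. The tissue came from 14 male Wuzhishan pigs whose age is labelled as 6 to 7 months, 1 array per animal. In 7 animals (OA) the anterior cruciate ligament, which stabilises the knee, had been operated on 24 weeks earlier, and the other 7 animals (sham) had received a sham operation 24 weeks earlier. The labels do not say how the ligament was altered or which part of the meniscus was sampled, and the animals are described as divided between the groups at random. The comparison of OA with sham asks which TLR transcripts differ in the meniscus after that surgery.

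TLRs are membrane receptors of the innate immune system that recognise microbial products and some molecules released from damaged tissue. TLR1, TLR2, TLR4, TLR6 and TLR10 act at the cell surface, TLR2 as a partner of TLR1 or TLR6 for lipopeptides and TLR4 with CD14 and LY96 for lipopolysaccharide. TLR3, TLR7, TLR8 and TLR9 act in endosomes and recognise RNA or DNA. Through the adaptors MYD88 and TICAM1 they activate nuclear factor kappa B and interferon regulatory factors. In joint tissue TLR2 and TLR4 are studied as sensors of matrix fragments and alarmins such as the S100 proteins, and most TLRs are expressed by macrophages and other leukocytes. In RefSeq's order of pig genes (assembly Sscrofa11.1) TLR10, TLR1 and TLR6 are direct neighbours, and TLR7 lies within the annotated span of TLR8.

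No TLR probe passed the threshold between the groups. At a limma adjusted p under 0.05, 0 of 13 TLR probes were higher and 0 lower in OA, against 2.88% of all 38818 tested probes higher and 0.848% lower; among the brightest probes of the 2258 named genes the shares were 2.97% and 0.266%. Only TLR9 had an unadjusted p under 0.05, 1 of 13 probes, where 19.6% of all tested probes did. For 0 of the 13 probes did every OA array lie above every sham array, as for 1.57% of all tested probes, and for 0 did every OA array lie below, as for 0.155%. The median log2 difference, OA minus sham, was -0.12 over the 9 genes (4 above 0, 5 below) and 0.003 over all named genes. With normexp background correction, an alternative, 4 of the 13 probes were called higher, beside 45.3% of all tested probes. The 2 genes with the smallest p were TLR7 and TLR9, both with higher means in OA.

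Signals are the scanner software's processed intensities in arbitrary units. Levels below are log2 of that signal minus the log2 of the array's own 75th percentile over all non-control probes, so that a level of 0 is the 75th percentile. A probe's level also depends on how well it binds, so levels of different probes or genes are not ranked against each other. Each probe counts as measured on an array where the scanner software marked it well above background. The groups differed in brightness. The raw 75th percentile ran from 418 to 622 on the sham arrays and from 156 to 492 on the OA arrays, and 89.7% to 95.2% of probes were well above background in sham but 67.9% to 89.3% in OA. Slides here are sets of arrays with the same recorded scan time, and no slide label was read. No slide held both groups. The sham arrays lay on slides 1 and 2 and OA 1 on slide 3. OA 2 to OA 5 lay on slide 4, and OA 6 and OA 7 on slide 5. All sham arrays were scanned on day 1, OA 1 on day 2 and OA 2 to OA 7 on day 3. Group therefore cannot be told apart from slide or scan day, and no value within a slide can be given. Before scaling, all 13 TLR probes had lower means in OA, by log2 differences of -1.34 to -0.28, beside a median of -1.12 over all tested probes. As a check of the tissue, 5 of 13 listed markers of meniscus fibrochondrocytes were measured (ACAN, DCN, SOX9, HAPLN1 and SPARC), and their mean level was 4.40 to 6.22 on sham and 4.32 to 6.28 on OA arrays. Sham 4 and OA 7 were the lowest, with the next lowest of their groups at 5.12 and 5.24. In whole tissue, fewer cells of a type and less RNA per cell cannot be told apart.

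All 13 TLR probes were well above background on each of the 7 sham arrays and on OA 6 and OA 7. On OA 2 the probes of TLR6, TLR8 and TLR10 were not, on OA 3 that of TLR6, and on OA 1, OA 4 and OA 5 that of TLR8. The geometric mean signals of these 3 probes over the 14 arrays were 18.6, 10.5 and 27.2. The other 10 probes were well above background on all 14 arrays.

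**Figure D1:**
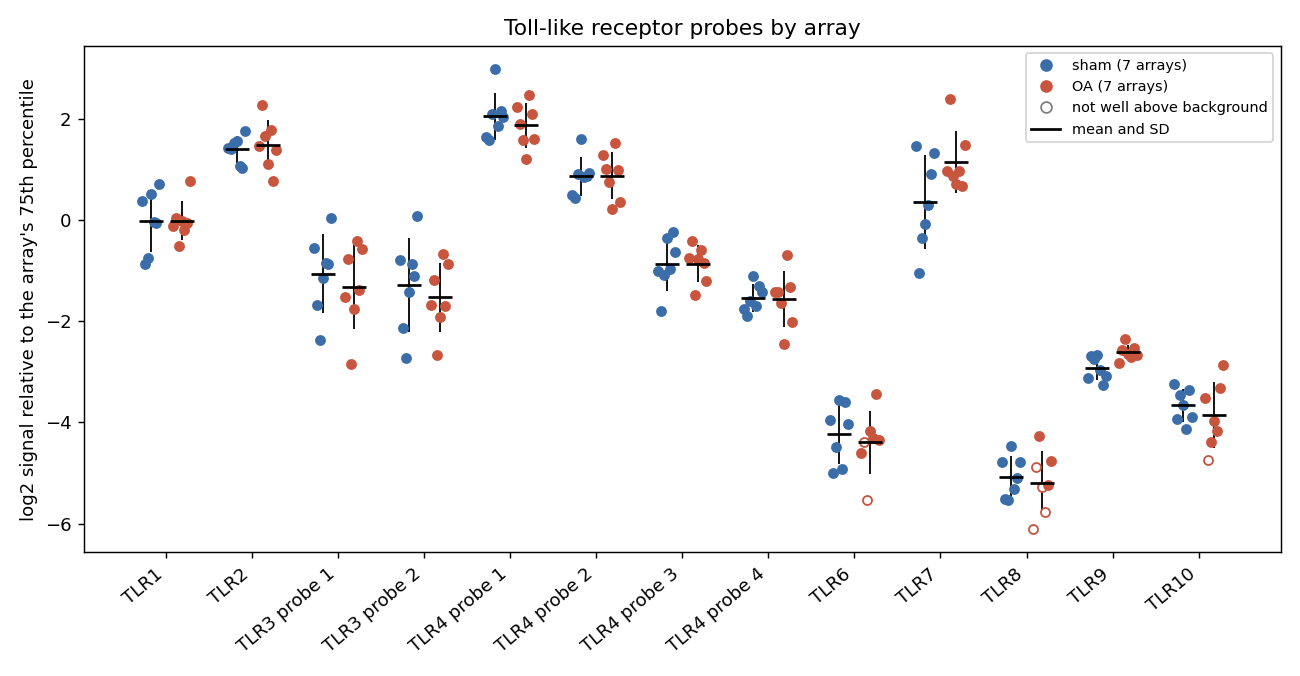
Level of each TLR probe (log2 signal relative to the array's 75th percentile, y axis) on the 7 sham and 7 OA arrays, with the group mean and SD; probes of one gene are numbered from the brightest. The groups overlap for all 13 probes, and the open points, which were not well above background, belong to TLR6, TLR8 and TLR10 on OA arrays.

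Among the surface receptors, TLR2, which recognises bacterial lipoproteins and pairs with TLR1 or TLR6, was bright and nearly equal in the groups. Its sham levels ran from 1.03 to 1.77 with a median of 1.43, and its OA levels from 0.78 (OA 6) to 2.28 (OA 2) with a median of 1.46. The sham arrays lay close together and the OA arrays spread on both sides of them, with 2 above the highest sham array and 1 below the lowest. The difference was 0.09 ± 0.21 (SE, log2; n = 7 per group; limma adjusted p = 0.85), with a 95% interval of -0.36 to 0.54. Without slides 3 and 4 it was -0.32 (limma adjusted p = 0.71; 0.57 to 0.98 over all alternatives).

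TLR1, the partner of TLR2 for triacylated lipopeptides, had almost the same mean level in both groups. Sham levels ran from -0.88 to 0.72 with a median of -0.03, and OA levels from -0.51 to 0.76 with a median of -0.05. In sham the low arrays were sham 2 and sham 3, at -0.88 and -0.75, whereas the next lowest stood at -0.05; 6 of the 7 OA arrays lay within the sham range. The difference was 0.00 ± 0.26 with a 95% interval of -0.56 to 0.56 (log2; limma adjusted p = 1.00).

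TLR6, the partner of TLR2 for diacylated lipopeptides, lay close to background. Sham levels ran from -5.00 to -3.56 with a median of -4.03, and OA levels from -5.53 (OA 3, not well above background) to -3.43 (OA 6) with a median of -4.36. The groups overlapped for 5 of the 7 OA arrays, and 2 of the OA values rest on spots at the background. Its difference of -0.17 ± 0.30 (SE, log2; limma adjusted p = 0.79) had a 95% interval of -0.81 to 0.47.

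TLR10, which pairs with TLR2, differed more within OA than between the groups. Sham levels ran from -4.12 to -3.25 with a median of -3.66. OA levels ran from -4.75 (OA 2, not well above background) to -2.86 (OA 7) with a median of -3.97. All 4 arrays of slide 4 lay below both arrays of slide 5, with means of -4.32 and -3.09, a gap of 1.22 on the log2 scale; 3 OA arrays fell below the sham range, 1 above it and 3 within it. Slide 4 held the dimmest OA array and slide 5 the brightest; what part brightness has in this gap was not tested. The difference from sham was -0.19 ± 0.26 (SE, log2; limma adjusted p = 0.74; 95% interval -0.75 to 0.37), and it turned to 0.57 without slides 3 and 4 (limma adjusted p = 0.45; 0.0014 to 0.97 over all alternatives).

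TLR4, the lipopolysaccharide receptor and the best represented member, gave similar group means with each of its 4 probes, all of which carry the accession of one transcript. Its brightest probe had sham levels of 1.59 to 2.99 with a median of 2.04 and OA levels of 1.21 to 2.47 with a median of 1.90. The highest value came from sham 4 and the lowest from OA 4, and 5 of the 7 OA arrays lay within the sham range. The difference was -0.19 ± 0.24 (SE, log2; n = 7 per group; limma adjusted p = 0.71), with a 95% interval of -0.69 to 0.32. The other probes stood at 0.01, 0.00 and -0.02, each with an SE of 0.23 or 0.24 and none past the threshold (limma adjusted p from 0.98 to 1.00). The probes also followed each other from array to array: within groups the brightest and second brightest differed with an SD of 0.13 on the log2 scale, against SDs of 0.45 and 0.43 of the levels themselves. The third brightest probe agreed least, with SDs of 0.41 to 0.44 for its differences from the other 3.

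TLR3, the endosomal receptor for viral-type RNA duplexes that signals through TICAM1, varied widely among the arrays of each group. By its brighter probe, sham levels ran from -2.38 (sham 3) to 0.05 (sham 7) with a median of -0.87, a 5.37-fold range, and OA levels from -2.84 (OA 3) to -0.42 (OA 5) with a median of -1.38, a 5.36-fold range. Its second probe ranged 7.02-fold in sham and 4.03-fold in OA, and the probes differed with an SD of 0.18 within groups where each varied with an SD of 0.81. The spread was therefore read alike by both probes. That SD within groups exceeded those of 90.1% of all tested probes. By the brighter probe, slide means were -1.44 and -0.56 on sham slides 1 and 2. They were -1.53, -1.45 and -0.98 on OA slides 3, 4 and 5. With 1 array per animal, animal and array cannot be told apart, and the part of the slide in this spread was not tested. The difference between groups was -0.26 ± 0.39 and -0.25 ± 0.39 (SE, log2; limma adjusted p = 0.75 and 0.77), with intervals reaching -1.09 and -1.07, so that a 2-fold lower level in OA lies within what these arrays allow.

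TLR7, an endosomal receptor for RNA of viral type, had the largest difference of the family. Sham levels ran from -1.05 (sham 2) to 1.46 (sham 1) with a median of 0.30, and OA levels from 0.67 (OA 6) to 2.39 (OA 2) with a median of 0.96. All 7 OA arrays lay above the sham mean of 0.36, but 5 of them lay within the sham range, and 2 above it. The sham slides were as far apart as the groups, with means of -0.007 on slide 1 and 0.85 on slide 2. OA slides 3, 4 and 5 had means of 0.97, 1.24 and 1.08. What part the slide has in the difference between groups was not tested. The difference was 0.79 ± 0.38 (SE, log2; n = 7 per group), a 1.73-fold higher mean in OA, with a 95% interval of -0.01 to 1.59 (unadjusted p = 0.052; limma adjusted p = 0.26). The spread in sham was wide, with an SD of 0.93 against 0.61 in OA. The difference stood at 0.56 without sham 2 and 0.59 without OA 2, and at 0.72 without slides 3 and 4. Over the alternatives the adjusted p ran from 0.18 to 0.71, so the call did not pass under any of them.

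TLR9, the endosomal receptor for unmethylated CpG DNA, was among the steadiest probes of the array. Sham levels ran from -3.27 to -2.66 with a median of -2.96, and OA levels from -2.82 to -2.34 with a median of -2.65. All 7 OA arrays lay above the sham mean and 4 of them above the highest sham array, while 3 lay within the sham range. Slide means were -2.80 and -3.11 on sham slides 1 and 2, and -2.82, -2.57 and -2.60 on OA slides 3, 4 and 5. Slide 3, a single OA array, thus stood near sham slide 1, and the part of the slide was not tested. The SD within groups was 0.20, lower than that of all but 1.78% of tested probes. The difference was 0.32 ± 0.15 (SE, log2), a 1.25-fold higher mean in OA with an interval of 1.00 to 1.56 in fold (unadjusted p = 0.046; limma adjusted p = 0.25), and it was 0.33 without slides 3 and 4. It passed with normexp background correction (0.61, limma adjusted p = 0.0013), under which 17574 probes in all were called higher; elsewhere its adjusted p reached 0.87.

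TLR8, which also recognises RNA in endosomes, was close to background. Its probe was well above background on 7 sham arrays but on 3 OA arrays (OA 3, OA 6 and OA 7). Sham levels ran from -5.53 to -4.46 with a median of -5.09, and OA levels from -6.11 (OA 1) to -4.28 (OA 3) with a median of -5.24. The fitted difference of -0.12 ± 0.27 (SE, log2; limma adjusted p = 0.85) thus rests in part on values at the background. With normexp background correction TLR6, TLR8 and TLR10 had positive differences of 0.60, 0.76 and 0.55 that passed the threshold (limma adjusted p from 0.0012 to 0.0021). Under that setting, which also takes the median spot signal and an offset, the median difference over all tested probes was 0.33. Without slides 3 and 4 the 3 genes stood at 0.33, 0.07 and 0.57 and did not pass, so their direction differs between settings.

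**Figure D2:**
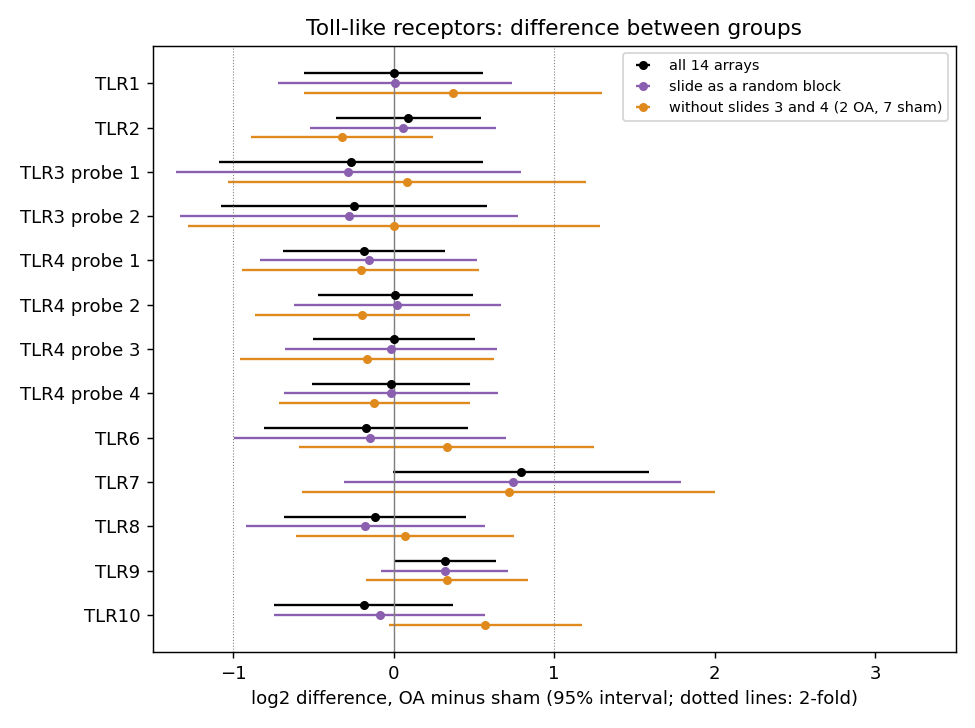
Difference between groups for each TLR probe (log2, OA minus sham, x axis) with its 95% interval from all 14 arrays, with the slide as a random block, and without slides 3 and 4 (2 OA and 7 sham arrays); dotted lines mark a 2-fold difference. All intervals from the slide block and without slides 3 and 4 cross 0, and the estimates of TLR1, TLR2, TLR6 and TLR10 move by 0.37 or more when slides 3 and 4 are left out.

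The intervals bound what could have been missed between these arrays. For 10 of the 13 probes, those of TLR1, TLR2, TLR4, TLR6, TLR8, TLR9 and TLR10, the 95% interval lay within a 2-fold difference either way, as for 68.1% of all tested probes; for both probes of TLR3 and for TLR7 it did not. These intervals leave out any effect of the slide. Without slides 3 and 4 the intervals of TLR1, TLR6 and TLR10 reached 1.3, 1.25 and 1.17 on the log2 scale, past a 2-fold difference. Those of TLR2, TLR4, TLR8 and TLR9 stayed within it. For TLR6, TLR8 and TLR10 some OA values were not well above background, so their intervals are no firm bound. With the slide as a random block the interval of TLR7 widened to -0.31 to 1.79 and that of TLR4's brightest probe to -0.83 to 0.52, and the smallest adjusted p among TLR probes was 0.64.

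The order of the arrays was compared with that by macrophage markers. Of 15 listed macrophage and monocyte genes 7 were measured (CD14, CD163, AIF1, LYZ, C1QA, CD86 and FCGR1A), with a mean level of 0.14 to 2.01 in sham and 0.20 to 2.03 in OA. The 2 lowest sham arrays by this list were sham 3 (0.14) and sham 2 (0.31), and they were also the 2 lowest for TLR1, TLR3, TLR7 and TLR8. The highest, sham 7, was also the highest for TLR1, TLR2 and TLR3. In OA the lowest array by the list was OA 3, which was the lowest for TLR1, TLR3 and TLR6, and the highest was OA 2, which was the highest for TLR2 and TLR7. The order was opposite for other members: OA 3 was the highest OA array for TLR8 and TLR9. OA 5, the second highest OA array by the list (1.58), was the second lowest for TLR1, TLR8 and TLR9. It was the highest, however, for TLR3 and TLR4 and the second highest for TLR2. OA 1, at 1.26 by the list, was the lowest for TLR8 and TLR9 but the second highest for TLR4. The TLR8 values of OA 1, OA 2, OA 4 and OA 5 and the TLR6 values of OA 2 and OA 3 were not well above background. Ranks in OA that use them are therefore uncertain. No measured macrophage gene passed the threshold between groups, and the median difference of the list was 0.07. Its summed signal ran from 6473 to 37170 in sham and from 6776 to 30356 in OA, before scaling. CD14 is also a TLR4 co-receptor and stands in both lists; the part of macrophage content in the TLR values was not tested. For TLR2, TLR4, TLR9 and TLR10, sham 3 was not among the 3 lowest sham arrays. The T and NK cell, dendritic cell and endothelial lists had 0 genes past the threshold: 11 of 14 T and NK cell, 3 of 10 dendritic cell and 4 of 9 endothelial markers were measured, with median differences of -0.07, 0.21 and -0.18.

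**Figure D3:**
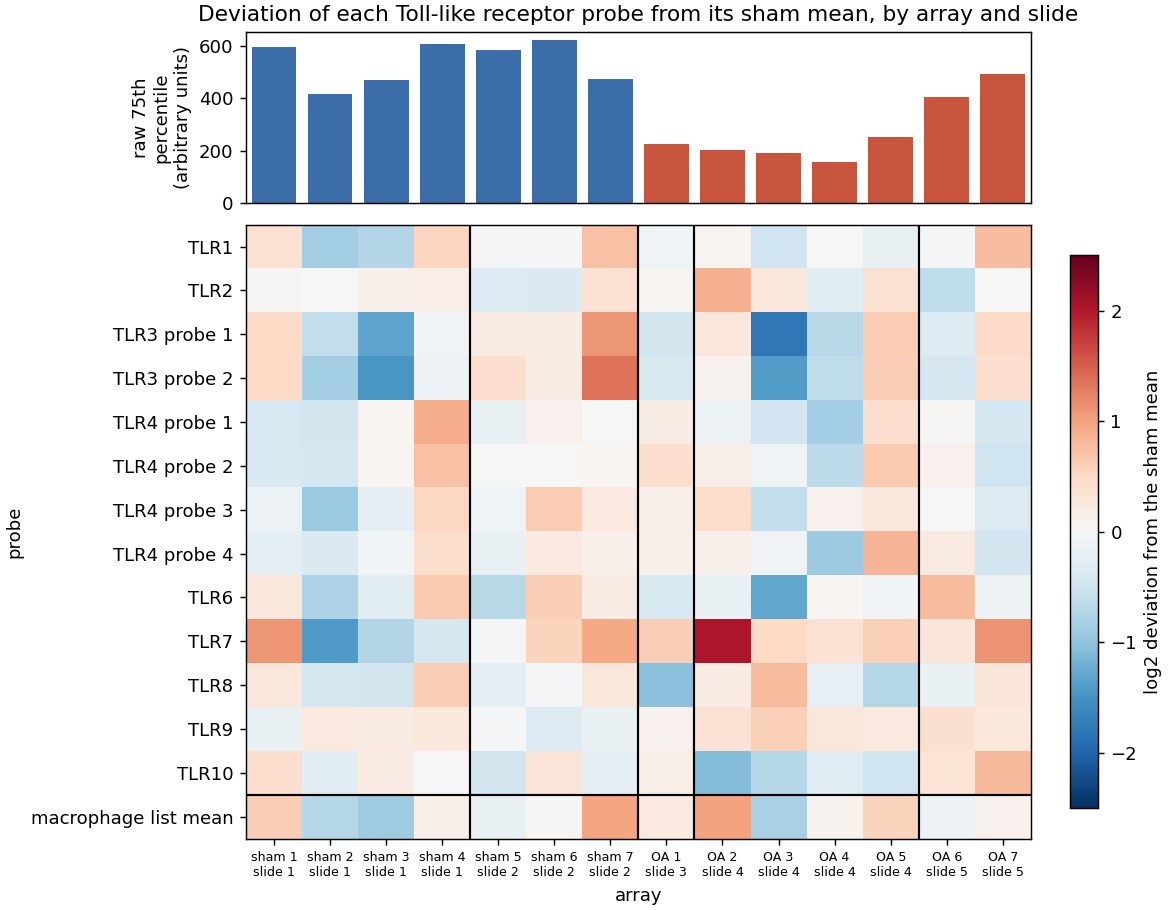
Deviation of each TLR probe from its sham mean (log2, colour) on each array, ordered by slide, with the mean of 7 macrophage and monocyte markers in the bottom row and the raw 75th percentile of each array in the bars on top (arbitrary units). Sham 2, sham 3 and OA 3 are low for TLR1, both TLR3 probes and the macrophage list, and TLR10 is lower on slide 4 than on slide 5.

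The named genes whose levels most resembled those of each TLR were found by Pearson's r over the 14 arrays after the group means were removed, among 2256 other genes; r serves here as a description, since arrays share slides and the closest of so many genes will be close by selection. For TLR7 IL10, an anti-inflammatory cytokine, was among the 2 closest (r = 0.90). For TLR1 the 2 closest were CAT, catalase (0.86), and FCGR3A, an Fc receptor of macrophages and NK cells (0.84). For TLR3 they were C4A, a complement component (0.87), and CCRL2, a chemokine-binding receptor (0.86). For TLR2 FCGRT, the neonatal Fc receptor, was among the 2 closest (0.78). For TLR4 SST, somatostatin, was among the 2 closest (0.85). For TLR9 they were AQP2, a water channel of the kidney (0.87), and PPARGC1A, a regulator of mitochondrial genes (0.85). Within the family the closest pair was TLR1 and TLR3 (0.73), whereas TLR9 had no member closer than TLR8 (0.29) and TLR2 none closer than TLR7 (0.38).

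Around the receptors, 66 of 127 listed gene symbols were measured in 8 lists. The list of other innate sensors, with 12 measured genes and NOD2 among them, is not of TLR signalling. Of the 66 genes 2 rose in OA while 0 fell, against the 2.97% and 0.266% of all named genes given above. With normexp background correction 22 of the 66 were called higher, beside 32.2% of all named genes. Their median difference was 0.002 on the log2 scale, beside 0.003 over all named genes, and 33 of 66 were above 0. CSF3, granulocyte colony-stimulating factor, rose by 0.90 ± 0.23 on the log2 scale (limma adjusted p = 0.037). All 7 OA arrays lay above its sham mean, but its other probe stood at -0.36 and the mean of both at 0.27. NOD2, an intracellular sensor of bacterial peptidoglycan outside the TLR family, rose by 0.87 ± 0.22 (limma adjusted p = 0.040). All 7 OA arrays lay above its sham mean as well, and its other probe stood at 0.47. Over their alternatives the adjusted p ran from 0.0012 to 0.99 for CSF3 and from 0.0010 to 0.96 for NOD2. Without slides 3 and 4 the differences of CSF3 and NOD2 were 0.28 and 0.23 and did not pass (limma adjusted p = 0.77 and 0.81). Nor did they pass with the slide as a random block (limma adjusted p = 0.21 and 0.25). With array brightness as a covariate they were 0.01 and 0.09. Both probes were well above background on all arrays but dim. Mean levels in sham and OA were -4.34 and -3.44 for CSF3 and -3.85 and -2.98 for NOD2. The lowest level marked well above background lay between -4.6 and -4.5 on OA 2 to OA 4. On the sham arrays it lay between -6.6 and -6.1. The count of 2 became 0 without any one of sham 1, sham 3 to sham 7 or OA 2 to OA 5, 1 without sham 2 and 5 without OA 1. With the replicate number as a block it was 0.

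Of 8 co-receptor and trafficking genes 0 passed. LBP, which delivers lipopolysaccharide to CD14, stood at 0.56 ± 0.22 (SE, log2; limma adjusted p = 0.18), 7 of 7 OA arrays lying above the sham mean, but at 0.06 without slides 3 and 4. CD14 itself stood at -0.45 ± 0.24 (limma adjusted p = 0.33), with all 7 OA arrays below the sham mean and its other probe at -1.12. The median of the list was 0.08. Of 7 listed adaptors 2 were measured, TICAM1 not being among them, and both were above 0. MYD88, shared by most TLRs, stood at 0.35 ± 0.20 and TICAM2, the bridging adaptor of TLR4, at 0.27 ± 0.31 (limma adjusted p = 0.34 and 0.68).

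Of 23 listed kinases and ubiquitin ligases 7 were measured, of which 0 passed and 6 were below 0, with a median of -0.22. MAP3K7, the kinase TAK1, stood at -0.66 ± 0.29 (SE, log2; limma adjusted p = 0.22), lower than the sham mean in 6 of 7 OA arrays, and IRAK4, the kinase that MYD88 recruits, at -0.22 ± 0.19. Of 8 transcription factors 0 passed. RELA, the p65 subunit of nuclear factor kappa B, stood at -0.79 ± 0.24 (limma adjusted p = 0.080), lower in 6 of 7 OA arrays with its other probe at -0.75, and it passed with quantile normalization (adjusted p = 0.035), with median scaling (0.039), in the authors' table (0.033) and without OA 6 (0.033), within a range of 0.033 to 0.85 over all alternatives. With normexp background correction it turned to 0.04, and without slides 3 and 4 it was -0.47 (adjusted p = 0.65). NFKB1, the p105 and p50 subunit, stood at -0.33 ± 0.26. Of 14 listed inhibitors 3 were measured and 0 passed. NFKBIA, which holds nuclear factor kappa B in the cytoplasm, stood at 0.28 ± 0.20 with its other probe at -0.30. TNIP1, a partner of the A20 deubiquitinase, stood at -0.75 ± 0.41.

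All 7 measured genes listed as endogenous ligands were above 0 by their brightest probes, and 0 of them passed. Their median was 0.30, beside 0.003 over all named genes, and DCN and TNC stood at only 0.01 and 0.05. Without slides 3 and 4, 4 were above 0 and 3 below it: HMGB1, S100A8 and TNC stood at -0.20, -0.07 and -0.63. The other probe of TNC had the opposite sign to its brightest probe. Of DCN's 4 probes, 1 besides the brightest shared its sign. Of HMGB1's 16 probes 9 others did, and of LGALS3's 7 probes 5 others did. S100A12 and S100A9, neutrophil and macrophage alarmins, stood at 1.27 ± 0.37 and 0.76 ± 0.29 (SE, log2; limma adjusted p = 0.065 and 0.15), and at 0.53 and 0.09 without slides 3 and 4. S100A12 passed without OA 1 (limma adjusted p = 0.041), without OA 7 (0.044), with array weights (0.040) and with normexp (0.0027), and reached 0.95 with array brightness as a covariate. Of 9 listed neutrophil markers 5 were measured, 3 of them S100 genes of the same list, and 0 passed, with a mean level of -3.81 to -2.90 in sham and -3.77 to -2.46 in OA and a summed signal of 246 to 417 and 119 to 314; their part was not tested. DCN, also a fibrochondrocyte marker, is among the ligands. Of 19 TLR-induced cytokines and enzymes CSF3 alone passed, with a median of 0.06 and 10 of 19 above 0. Of 12 other innate sensors NOD2 alone passed, with a median of -0.14 and 8 below 0. Without slides 3 and 4, 1 of the 66 genes passed, and it was lower in OA: IL12B, a subunit of interleukin 12, named here after its values were seen. Under that setting 0.133% of all named genes and 0.1% of all probes were called lower. Its probe was well above background on 2 of the 7 OA arrays.

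**Figure D4:**
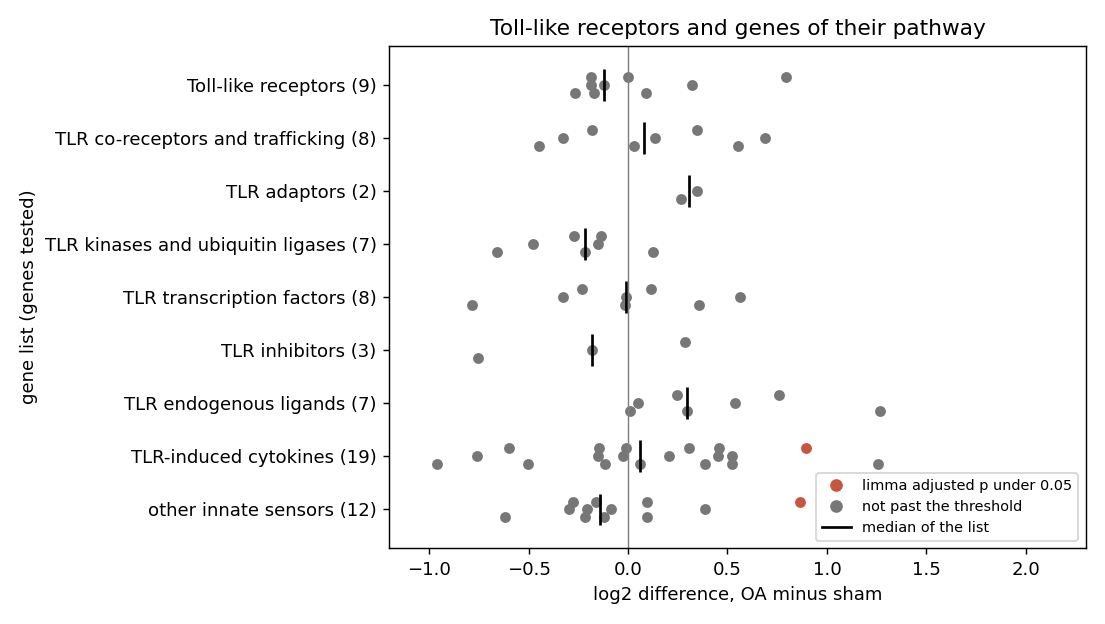
Log2 difference between groups (OA minus sham, x axis) of the 9 TLR genes and of the measured genes of each pathway list, 1 point per gene by its brightest probe, with the list median as a bar. The points past the threshold are CSF3 and NOD2, and the kinases lie mostly below 0. The endogenous ligands lie above 0, DCN (0.01) and TNC (0.05) only just.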

How the data were processed

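Per the file headers, the deposited intensity values came from Agilent Feature Extraction 11.0.1.1 (1 colour), which subtracted background within each array; its marks for spots well above background, non-uniform or outlying were used as deposited. Each array's log2 signals were scaled to their 75th percentile (43603 non-control probes); 82 marked spots were set missing, and no spot was saturated. Probes marked well above background in 7 or more of 14 arrays, 38818 in all, were compared with limma 3.58.1 in R 4.3.3 (lmFit, eBayes, two-sided, Benjamini-Hochberg over all of them, threshold 0.05). This procedure was tested on simulated data, which held no slide effect and larger changes than any TLR probe showed. The simulation therefore does not bear on slide effects or on smaller differences. Names came from 5461 of 5779 RefSeq accessions matched to the Sscrofa11.1 table; no coordinates are printed, since the sources used here name no build for the array. The brightest probe stood for a gene. The deposited series table of log2 values, whose processing is not stated, was an alternative only. Normexp (offset 50) used the median spot signal, since the mean planned for it is not a column used here. Members, lists and tests were chosen with earlier results of these data known. Named were all TLR probes, each list's genes past the threshold or else its 2 smallest p, and the 2 closest genes of each TLR well above background on all arrays. The number of arrays limits the precision. Some of these closest genes and 1 marker list are not reported here.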

Additional observations from a re-analysis of the deposited data

Results flagged for a closer look

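TLR4 on sham 4 stood apart from the other sham arrays. Its brightest probe read 2.99 there, with the next sham array at 2.16, so that this gap made up 0.59 of the whole sham range. The second brightest probe read 1.60, with the next at 0.93, a gap of 0.58 of the range. Both probes read one gene on one array, so they are not separate events. Of 26 groups of 7 arrays examined, these were the 2 that were flagged, and chance alone flags about 1 in 20 groups. A wide gap also stood in TLR1 in OA, which was not flagged. There OA 7 read 0.76, the next array 0.05 and the lowest -0.51. Without sham 4 the difference of the brightest probe was -0.03.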

How the results depend on the processing

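Probes of a gene are numbered from the brightest, and values are log2 differences, OA minus sham. Of 370 values of TLR probes under the alternatives, 311 kept their direction and their side of the threshold, 58 changed sign and 1 (TLR9 with normexp) kept its direction and passed; with the sign changes of TLR6, TLR8 and TLR10 under normexp, 4 values passed in all. The cause of the sign changes was not tested. No TLR probe or gene passed under any alternative except normexp background correction, with 4 probes and 4 genes; there 22 pathway genes passed, beside 32.2% of all named genes called higher, TLR3 probe 2 was 0.090, TLR4 probes 2 and 4 were -0.070 and 0.21, TLR6 0.60, TLR8 0.76, TLR10 0.55, RELA 0.039 and TNIP1 0.43. With quantile normalization TLR4 probe 2 was -0.023 and TLR8 0.074; in the authors' table that TLR4 probe was -0.022. Array weights gave 4 pathway genes, TLR1 at -0.076 and TLR4 probes 3 and 4 at -0.031 and 0.068. With the slide as a random block TLR4 probe 3 was -0.017 and with the scan day TLR1 was -0.0044; both blocks left 0 pathway genes.

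Without slides 3 and 4, 1 pathway gene passed, TLR2 was -0.32, the TLR3 probes 0.083 and 0.0017, TLR4 probes 2 and 3 -0.19 and -0.17, TLR6 0.33, TLR8 0.070 and TLR10 0.57. With array brightness as a covariate 0 pathway genes passed, TLR2 was -0.26, the TLR3 probes 0.54 and 0.47, TLR4 probes 1 and 4 0.10 and 0.20, TLR6 0.49, TLR8 0.075, TLR10 0.68, LBP -0.16 and S100A9 -0.19. With the mean of all probes 1 pathway gene passed and NFKBIA was -0.0094. With the replicate block 0 TLR probes and 0 pathway genes passed; same-numbered arrays did not deviate together (correlations from -0.19 to 0.27), and 0 of 7 sham arrays correlated best with their own number.

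Leaving out each array in turn gave 0 TLR probes and genes throughout and 0 to 5 pathway genes. The ranges were -0.14 to 0.12 for TLR1, -0.040 to 0.21 for TLR2, -0.10 to 0.13, -0.15 to 0.11 and -0.16 to 0.13 for TLR4 probes 2, 3 and 4, -0.33 to 0.017 for TLR6 and -0.27 to 0.035 for TLR8. The filter on all 14 arrays left no value for TLR6, TLR8 and TLR10. Signal over background limits TLR6, TLR8 and TLR10 most.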
